A study of Cucumis melo with 4 samples.

Results

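A set of 313 melon genes had far lower transcript levels in the second library than in the first in both deposited tables, B and Y. They were selected on the deposited levels themselves. A locus was eligible if it carried exactly 1 MELO3C gene identifier, lay on a scaffold and had a value above 0 in all 4 libraries, which held for 14810 of the 32625 loci. For each table the quantity l was taken as the log2 of (second value + 1) over (first value + 1), and a locus entered the set where l was at most -3, an 8-fold lower value with 1 added to each level, in both tables. The 313 members are 2.11% of the eligible loci. Since these values chose the members, their levels and their differences are a description and carry no test.

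RNA of muskmelon (Cucumis melo) was extracted as total RNA and sequenced on libraries made by Illumina protocols, from the cultivars BXC and YL, each as untreated plants and as plants watered with sodium chloride. Salt was raised by 75 mM each day, and the labels name 150 and 300 mM as final concentrations without saying which stressed sample had which. Each of the 4 combinations of cultivar and treatment is 1 library, so every difference between libraries stands without replication. All 4 samples are listed under the same growth regime, with a photoperiod of 14 h. Its temperature setting was 28 degrees Celsius in the light period and 24 in the dark. The labels name neither the tissue, nor the age of the plants, nor how many plants went into a library. The letter of each table is that with which the titles of the BXC (B) and YL (Y) samples begin. The tables number their libraries and do not say which one was salt-stressed, so "first" and "second" are the order of the columns and no direction relative to salt is stated.

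Salt reaches a plant as a shortage of water and as an excess of sodium and chloride ions. Plants commonly respond to both through the hormone abscisic acid, through transporters that keep sodium out of the cytoplasm, and by holding back growth and photosynthesis. Whether the members belong to any such group was not assessed, because the tables give identifiers without names or functions. The reference table at hand, of 28628 melon genes, does not list MELO3C identifiers, so 0 of the 313 could be matched in it. The RNA comes from whole samples, in which fewer cells of a type and less RNA per cell cannot be told apart.

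The members were among the abundant transcripts of both first libraries and lay in the lower part of the range in both second libraries. Levels are the authors' RPKM, which by its usual definition is reads scaled to the length of the locus and to the number of mapped reads of the library. In the first library of B the members ran from 9.21 to 11000000 RPKM, with a median of 96.2, against a median of 10.4 over all eligible loci. In its second library they ran from 0.0865 to 107001 RPKM, with a median of 4.22 against 9.51 over all eligible loci. For Y the first library ran from 8.63 to 6610000 RPKM with a member median of 115 (all eligible loci 11.4), and the second from 0.0621 to 106800 with a member median of 3.28 (all eligible loci 8.67). Ranked within each library, the median member stood above 92.01% of eligible loci in the first library of B and above 93.2% in that of Y. In the second libraries it stood above 31.3% and 26.8%. Part of this is set by the rule, which only a locus above 7 RPKM in both first libraries can meet. Of the 8341 eligible loci above that level, 3.75% were members.

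**Figure D1:**
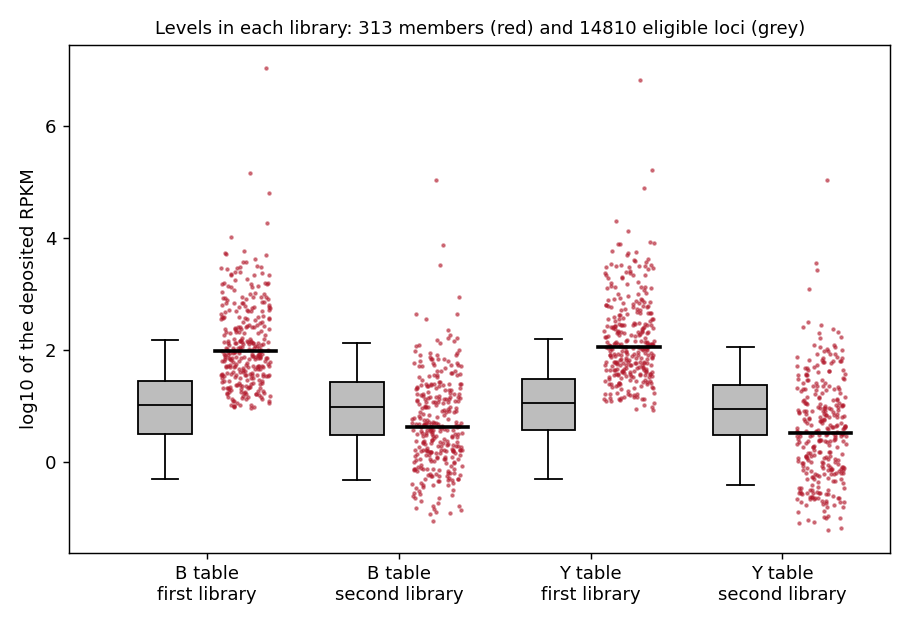
Deposited RPKM in each library, on a log10 axis. Red points are the 313 members, black bars their medians (96.2, 4.22, 115 and 3.28 RPKM from left to right), and grey boxes the quartiles of all 14810 eligible loci with whiskers at the 5th and 95th percentiles.

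Low did not always mean absent. In the second library of B, 64 members were under 1 RPKM, 141 lay between 1 and 10, 91 between 10 and 100, 14 between 100 and 1000, and 3 at 1000 or above. In the second library of Y the corresponding counts were 95, 126, 75, 13 and 4. As many as 110 members in B and 101 in Y were still above the median of all eligible loci in the second library. At the median, a member's second value was 4.59% of its first in B and 2.88% in Y, with lowest values of 0.0656% and 0.0362% and none above 12.3%. The second value was under 1% of the first for 35 members in B and 57 in Y. At every one of the 313 members the lower of the first values exceeded the higher of the second values, by a factor of at least 2.13. The rule itself sets such a gap within each table, so much of this separation comes with the selection. Its share over all eligible loci was not counted.

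Of the 6 most abundant members with a region of their own, 4 kept second values near 100 RPKM or above. These 6 have the highest geometric mean of the first libraries among the 271 members whose region no other locus shares, and the other 2, MELO3C007154 and MELO3C012912, had second values from 3.86 to 20.2 RPKM and are described with the largest differences. MELO3C008282 (scaffold00008, 3008576 to 3008782, 207 bases) had 147811 and 7390 RPKM in the first and second libraries of B and 163449 and 3554 in those of Y, an l of -4.32 and -5.52. MELO3C012252 (scaffold00016, 3972793 to 3973538) had 63119 and 3244 RPKM in B and 78210 and 2632 in Y, an l of -4.28 and -4.89. Both were far above the median eligible locus in all 4 libraries. MELO3C023879 (scaffold00063, 1008342 to 1010664) stood at 18407 and 356 RPKM in B and at 19748 and 99.0 in Y, an l of -5.69 and -7.63. MELO3C016181 (scaffold00027, 1975856 to 1978057) stood at 10297 and 901 in B and at 13416 and 1205 in Y, an l of -3.51 and -3.48. For the first of these the second library of Y was much the lowest of the 4 values, whereas for the other the tables gave nearly the same ratio.

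A single member, MELO3C008486 (scaffold00008, 7385849 to 7388319), carried values above what its region could reach if RPKM has its usual definition. Its deposited levels were 11000000 and 107001 RPKM in B and 6610000 and 106800 in Y. A region of its 2471 bases that received every mapped read would then have 404694 RPKM. How the deposited values arose is not recorded. No other eligible locus exceeded the limit for its region, and MELO3C008486 shares its exact region with another locus. Loci that were not eligible reached far higher values, up to 2.18e+08 and 1.88e+08 in the first and second libraries of B. In those of Y they reached 3.84e+08 and 3.8e+08. Whether the deposited values follow the usual definition of RPKM is therefore uncertain. Its l of -6.68 in B and -5.95 in Y should be read with that in mind.

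The largest differences by l began at high first levels. The 1 added to each value limits how low l can go from a lower level. As a percent of the first value, the lowest second values were those of MELO3C015163 in B (0.0656% of 381 RPKM) and MELO3C013952 in Y (0.0362% of 373 RPKM). MELO3C012912 (scaffold00018, 2939873 to 2940915) had the lowest mean l of all, with 4963 and 4.22 RPKM in B and 8479 and 3.86 in Y, an l of -9.89 and -10.77. Its second values were 0.0850% and 0.0455% of the first. MELO3C007153 and MELO3C007154 lie next to each other on scaffold00007, at 1145930 to 1147062 and 1148458 to 1149614. MELO3C007153 had 993 and 0.966 RPKM in B and 2492 and 2.96 in Y, an l of -8.98 and -9.30. MELO3C007154 had 5879 and 9.35 RPKM in B and 7863 and 20.2 in Y, an l of -9.15 and -8.54. The 2 neighbours thus had first values from 993 to 7863 RPKM and second values from 0.966 to 20.2.

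MELO3C016556 (scaffold00028, 3076842 to 3078529) had 1395 and 2.09 RPKM in B and 2227 and 6.27 in Y, an l of -8.82 and -8.26. MELO3C018937 (scaffold00035, 1391338 to 1394930) had 787 and 4.35 RPKM in B and 762 and 0.727 in Y, an l of -7.20 and -8.79. MELO3C025332 (scaffold00077, 1069842 to 1070238) had 893 and 5.66 RPKM in B and 455 and 0.601 in Y, an l of -7.07 and -8.15. For the last 2 genes the second value was lower in Y, while the first value was higher in B or close to it.

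**Figure D2:**
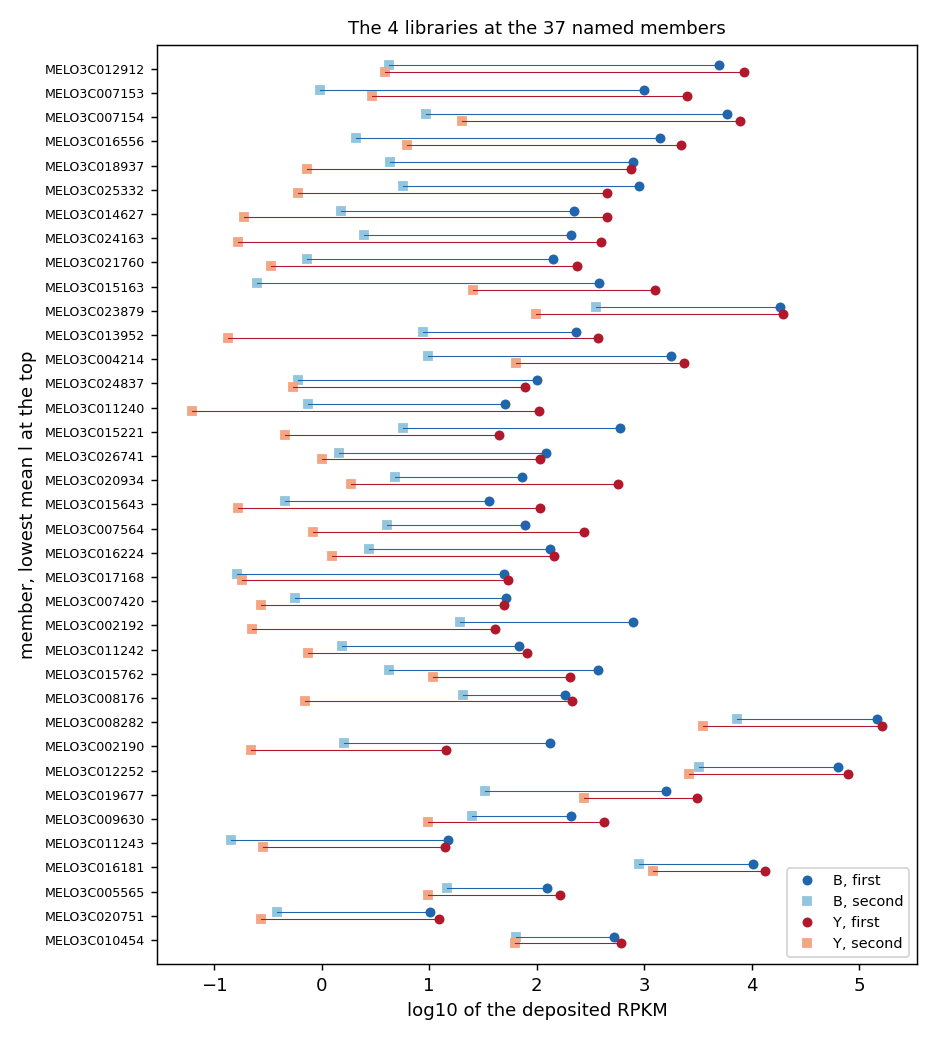
Deposited RPKM of the 37 named members in the first (circles) and second (squares) libraries of B (blue) and Y (red), on a log10 axis, ordered by mean l. At the top MELO3C012912 runs from 4963 to 4.22 RPKM in B and from 8479 to 3.86 in Y; at the bottom MELO3C010454 runs from 526 to 64.5 and from 604 to 63.2.

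Few members were called in the authors' deposited tables, which give a q-value for the same pair of libraries. In the authors' deposited table, 25 members had a q-value under 0.05 in B. They were among 32 eligible loci (0.216%) that were lower in the second library at that limit. In Y the authors' deposited table has 38 such members, among 57 such eligible loci (0.385%). Members were thus most of the loci called lower in either table. The q-value rests on the values that chose the members, so these counts are given as a description. In the authors' deposited tables, 13 members had a q-value under 0.05 in both, all with a region of their own, and 263 had one in neither. The corresponding shares over all eligible loci were not counted. How a test on 1 library a side estimated its variability is not recorded.

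The members with low q-values in both covered a wide range of levels. By the geometric mean of the first libraries 3 of the 13 lay at 500 RPKM or above, namely MELO3C007153, MELO3C016556 and MELO3C025332 described above, as did 70 of all 313 members. In the authors' deposited tables MELO3C021760 (scaffold00049, 1603565 to 1604789) had a q-value of 0.00810 in B and 0.00270 in Y, from 142 and 0.724 RPKM in B and 240 and 0.340 in Y. MELO3C024163 (scaffold00066, 1064302 to 1065083) reached 0.0200 in B and 0.00200 in Y by the q-value of the authors' deposited tables, from 211 and 2.49 RPKM in B and 396 and 0.169 in Y. MELO3C014627 (scaffold00022, 4563868 to 4570590) had 223 and 1.52 RPKM in B and 450 and 0.189 in Y, with an l of -6.47 and -8.57. The first values of these 3 genes lay between 142 and 450 RPKM. MELO3C008282, MELO3C012252, MELO3C016181 and MELO3C023879, the 4 most abundant of the named genes, had q-values of 0.0521 or more wherever the authors' deposited tables list them.

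Others with a low q-value in both had nearly equal levels in the cultivars. MELO3C017168 (scaffold00030, 633015 to 634440) had 49.5 and 0.164 RPKM in B and 53.8 and 0.180 in Y, an l of -5.44 and -5.54. MELO3C024837 (scaffold00071, 920643 to 923613) had 99.9 and 0.609 RPKM in B and 77.2 and 0.540 in Y. MELO3C007420 (scaffold00007, 2680423 to 2681667) had 52.1 and 0.564 in B and 50.2 and 0.274 in Y. In each of these 3 genes every second value was under 1 RPKM and every first value near or above 50. MELO3C026741 (scaffold00104, 220679 to 222428) and MELO3C016224 (scaffold00027, 2663352 to 2665449) had first values between 109 and 145 RPKM and second values between 1.01 and 2.78 over both tables. Unlike these, MELO3C015221 (scaffold00024, 5456745 to 5466060) had 596 and 5.71 RPKM in B but 44.8 and 0.459 in Y, so that its levels were more than 10-fold apart between the tables in both libraries while l was -6.48 and -4.97. Without the added 1, its second values were 0.958% and 1.02% of the first, nearly the same in both tables. MELO3C015643 (scaffold00025, 3837848 to 3846342) was the reverse in its first libraries, with 36.03 and 0.455 RPKM in B and 109 and 0.168 in Y.

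The set was read from both tables, and the tables contributed unequally to it. In B, 402 eligible loci had l at most -3, which is 2.71%, and in Y 761 had it, which is 5.14%. The members were 77.9% of the B list and 41.1% of the Y list. Of the 89 loci past the limit in B alone, 83 had an l below 0 in Y, with a median of -2.40. Of the 448 past it in Y alone, 419 had an l below 0 in B, with a median of -1.98. Most loci of either list that missed the set were therefore lower in the other second library too, while the rule itself sets that l there was above -3. Of the 13613 eligible loci neither in the set nor within 20000 bases of a member, 52.2% had an l below 0 in B. In Y 59.9% of them had it. These loci were not matched by level. The opposite pattern, l of at least 3 in both tables, was found at 226 eligible loci, or 1.53%.

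**Figure D3:**
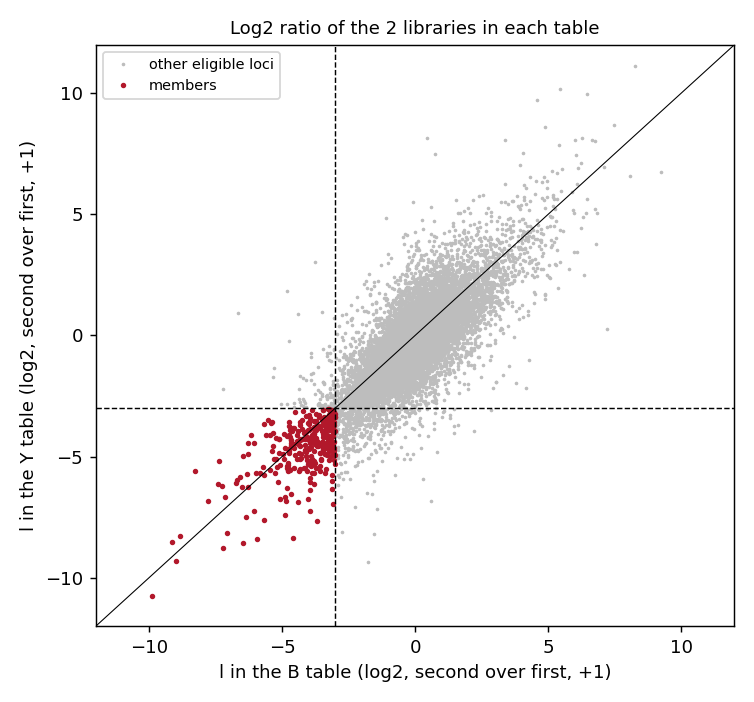
The log2 ratio l of second over first library in the B table (x) and the Y table (y) for 14810 eligible loci, with the 313 members in red, the limits of -3 dashed and equality as a solid line. Members reach -9.89 in B and -10.77 in Y, and 218 of them lie below the line of equality.

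Within the set l was lower in Y than in B more often than the reverse, as it was over the other loci. The median l of the members was -3.91 in B, with quartiles of -4.67 and -3.36, and -4.46 in Y, with quartiles of -5.20 and -3.88. Over all eligible loci the medians were -0.10 and -0.31. At 218 of 313 members, 69.6%, l was lower in Y. The share was 63.5% over all eligible loci and 69.7% over the loci above 7 RPKM in both first libraries, so the members' share did not stand apart. With each table's l taken from its own median, 188 of the 313, 60.1%, were lower in Y. The median difference, Y minus B, was -0.46 for members and -0.25 for all eligible loci, and 200 members differed by less than 1 log2 unit.

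The difference between the tables came from both ends. The median log2 ratio of Y over B was 0.35 in the first libraries and -0.34 in the second for members, against 0.10 and -0.20 for all eligible loci. First values were higher in Y at 218 members and second values lower in Y at 194. Both held at 127 members, and at 28 both were the other way round. How the authors scaled one table against the other is not given, so ratios between tables are less secure than ratios within them. Across members, which are not independent replicates, log2 first values of B and Y correlated at a Pearson's r of 0.951 and log2 second values at 0.877. Over all eligible loci these were 0.924 and 0.905. The l values of members correlated at 0.608, with a Spearman's rho of 0.439, over a range that the rule limits on one side.

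The l of only 25 members differed by 2 log2 units or more between the tables, 20 lower in Y and 5 lower in B. Where second values are low, the 1 added to each value enters these differences. MELO3C020934 (scaffold00045, 2572468 to 2574744) was furthest on the Y side, with 73.3 and 4.84 RPKM in B and 575 and 1.88 in Y, an l of -3.67 and -7.64. MELO3C008176 (scaffold00008, 1571034 to 1571680) had 183 and 20.8 RPKM in B and 212 and 0.705 in Y, an l of -3.08 and -6.96. In the first gene the gap was mainly in the first libraries, and in the second gene almost wholly in the second libraries. MELO3C013952 (scaffold00021, 2399565 to 2400328) had 233 and 8.78 RPKM in B and 373 and 0.135 in Y, an l of -4.58 and -8.36. MELO3C007564 (scaffold00007, 3691942 to 3696135) had 78.6 and 4.10 in B and 274 and 0.825 in Y, an l of -3.96 and -7.24.

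On the B side, 4 of the 5 genes were further apart between the tables in the second libraries than in the first. MELO3C015163 (scaffold00024, 4168897 to 4169076, 180 bases) had 381 and 0.250 RPKM in B and 1269 and 25.5 in Y, an l of -8.26 and -5.58. MELO3C004214 (scaffold00003, 4992468 to 4995236) had 1763 and 9.74 RPKM in B and 2358 and 64.8 in Y, an l of -7.36 and -5.16. MELO3C019677 (scaffold00039, 1753240 to 1754504) had 1585 and 33.0 in B and 3099 and 279 in Y, an l of -5.54 and -3.47. In these 3 genes Y was higher than B in both libraries. MELO3C015762 (scaffold00026, 1206668 to 1208292) was higher in the first library of B, with 375 and 4.23 RPKM there and 205 and 10.8 in Y, an l of -6.17 and -4.12. The fifth, MELO3C002190, was further apart in the first libraries and is described with its neighbour.

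Members were more frequent at higher levels. By the geometric mean of the first libraries, 96 members lay under 50 RPKM, 147 between 50 and 500, and 70 at 500 or above. These were 0.762%, 7.32% and 33.3% of the eligible loci at those levels, the last being 70 of 210. The lowest class also holds loci that the rule cannot admit. Of its 6122 loci above 7 RPKM in both first libraries, 1.57% were members, and the shares of the higher classes stayed the same. A high first value favours a lower second value by the way such classes are formed, and the same holds in reverse: of 130 loci at 500 RPKM or above in the second libraries, 18.5% were higher in both second libraries and 3.08% were members. Classed by the geometric mean of all 4 libraries, which treats first and second alike, members made up 1.65%, 4.68% and 15.3% of the 3 classes, the last being 18 of 118 loci. These classes also use the values that chose the members, and the 1 added to each value hinders low loci in either direction. They are therefore no test of a link with level. Loci higher in both made up 1.36%, 2.71% and 2.54%, the last being 3 of 118.

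**Figure D4:**
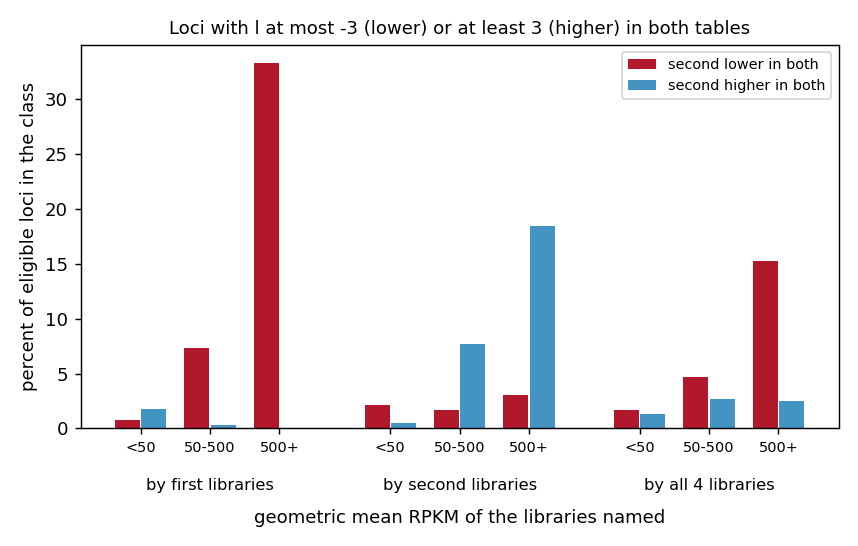
Percent of eligible loci with l at most -3 (red) or at least 3 (blue) in both tables, in classes of RPKM by the geometric mean of the first, the second or all 4 libraries. Over all 4 libraries the highest class has 15.3% lower and 2.54% higher loci, and over the first libraries it has 33.3% and 0%.

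The same was seen when the level was read from one cultivar and l from the other. Of 226 eligible loci with at least 500 RPKM in the first library of Y, 34.5% had l at most -3 in B and 0.885% had l at least 3. Of 207 loci with at least 500 RPKM in the first library of B, 41.1% had l at most -3 in Y and none had l at least 3. The cultivars share no library, but log2 levels in their first libraries run closely together (Pearson's r of 0.924 over all eligible loci). Reading the level from the other cultivar therefore cannot separate level from the way such classes are formed. Median l over these abundant loci was -1.87 in B for the first list and -2.60 in Y for the second.

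The members differed among themselves by level. Those under 50 RPKM had median second values of 1.03 RPKM in B and 0.638 in Y, and both second values were under 1 RPKM for 42 of the 96. Those at 500 or above had median second values of 53.0 and 55.5 RPKM and none with both under 1. Median l went from -3.51 in B and -4.01 in Y in the lowest class to -4.49 and -4.89 in the highest. The 1 added to each value limits how low l can go at low levels. As a percent of the first value the medians were 4.10, 5.22 and 4.35 in B and 2.03, 3.64 and 3.27 in Y from the lowest class to the highest, without an order. The share of members lower in Y was 76.0% in the lowest class, 72.8% in the middle and 54.3% in the highest. For other loci this share was not counted by class, so whether the order is particular to members is not known.

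Near the limit the set has no gap. The member nearest to it, MELO3C005004, shares its region with another locus and had an l of -3.001 in B and -3.38 in Y. Next inside, among members with a region of their own, MELO3C010454 (scaffold00013, 2203247 to 2203966) had 526 and 64.5 RPKM in B and 604 and 63.2 in Y, an l of -3.01 and -3.23. MELO3C009630, MELO3C020751 and MELO3C005565 had an l of -3.01, -3.01 and -3.02 in B and -5.30, -3.38 and -3.95 in Y. Just outside, MELO3C006554 (scaffold00006, 4130269 to 4132066) had 206 and 24.96 RPKM in B and 192 and 21.5 in Y, an l of -2.99 and -3.10. MELO3C020900, MELO3C024760 and MELO3C006046 had an l of -2.99, -3.16 and -2.99 in B and -3.37, -2.99 and -4.14 in Y. Further loci met the limit on l but not the other conditions. They were 8 loci with 1 identifier on unplaced contigs, 15 with several identifiers and 20 with none, and 81 loci with 1 identifier on a scaffold and a value of 0.

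The members were spread over the genome. They lay on 73 of the 219 scaffolds that hold eligible loci, and on 38 of the 41 with at least 100 such loci. Among those 41 the share of members ran from 0% to 5.41%, with a median of 2.10%. Scaffold00014 had the most, 22 of 627 eligible loci (3.51%), followed by scaffold00016 with 19 of 573 (3.32%). The highest share was on scaffold00002, with 8 of 148. In stretches of 1000000 bases, the most were 8 members, found at the start of scaffold00014 among 120 eligible loci and between 1000001 and 2000000 of scaffold00016 among 105.

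**Figure D5:**
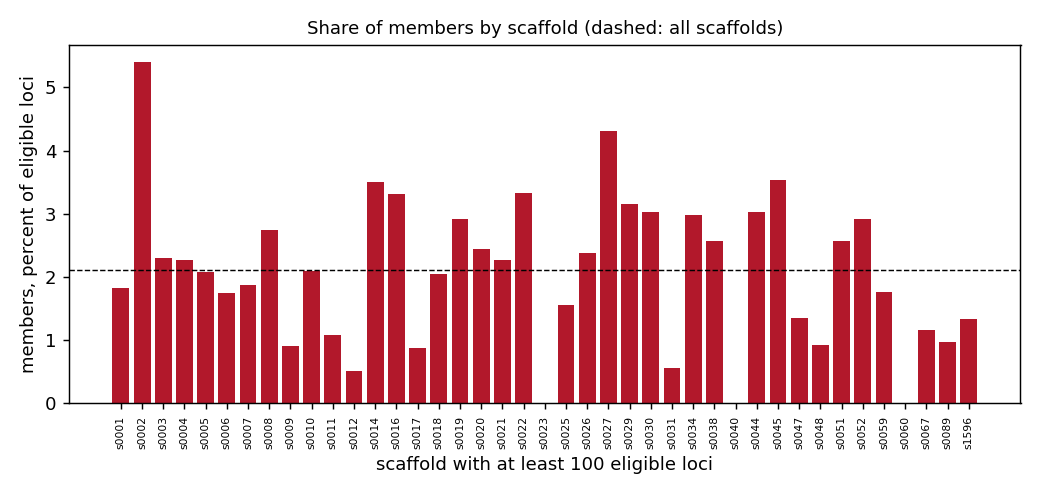
Members as a percent of eligible loci on the 41 scaffolds with at least 100 eligible loci (names shortened to their last digits), with the 2.11% over all scaffolds dashed. Scaffold00002 is highest at 5.41%, and 3 scaffolds have none.

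Some members had another member close by. Of the 313, 35 (11.2%) lay within 20000 bases of another member, as did 6.10% of the other eligible loci and 6.32% of those above 7 RPKM in both first libraries. The same order held within each class of first level: 9.38% against 5.84% under 50 RPKM, 11.6% against 7.68% between 50 and 500, and 12.9% against 8.57% at 500 or above. At 5000 bases the shares were 2.88% and 2.01%, and at 50000 bases 18.2% and 12.9%. The 35 formed 16 pairs and 1 group of 3, and 278 members stood alone. Among 308 members followed by another eligible locus on the scaffold, that next locus was a member for 10, or 3.25%. Reads that match near-identical neighbouring copies could be shared between them, and such copies were not looked for here.

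The group of 3 lies on scaffold00014 between 4126693 and 4139651. MELO3C011240 (4126693 to 4129600) had 50.6 and 0.740 RPKM in B and 106 and 0.0621 in Y, an l of -4.89 and -6.66. MELO3C011242 (4131911 to 4134700) had 69.1 and 1.56 in B and 81.9 and 0.755 in Y, an l of -4.77 and -5.56. MELO3C011243 (4136504 to 4139651) had 15.1 and 0.144 in B and 14.0 and 0.284 in Y, an l of -3.82 and -3.54. The first values of the 3 genes thus differed several-fold while 5 of the 6 second values were under 1 RPKM.

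MELO3C002190 and MELO3C002192 on scaffold00001 (1855404 to 1858188 and 1864084 to 1866735) were a pair with unlike levels in the cultivars. MELO3C002190 had 134 and 1.62 RPKM in B and 14.5 and 0.222 in Y, an l of -5.69 and -3.66. MELO3C002192 had 797 and 19.2 in B and 41.0 and 0.226 in Y, an l of -5.30 and -5.10. Both were thus several-fold higher in B than in Y in the first and in the second libraries. The second values of MELO3C002190 were 1.20% of the first in B and 1.54% in Y, closer together than its l. Those of MELO3C002192 were 2.41% and 0.550%, further apart than its l. The other pairs, besides MELO3C007153 with MELO3C007154, include MELO3C010872 and MELO3C010875 on scaffold00014 and MELO3C017176 and MELO3C017180 on scaffold00030. MELO3C017180 (708089 to 709608) had 2504 and 10.3 RPKM in B and 2739 and 23.1 in Y, and MELO3C017176 (691357 to 693362) had 486 and 14.6 in B and 687 and 22.5 in Y.

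Loci near a member that were not members themselves were slightly lower in the second libraries than loci elsewhere. Their median l was -0.25 in B and -0.44 in Y over 884 loci, against -0.05 and -0.28 over the 13613 others. An l below 0 was found at 60.4% of them in B and 67.0% in Y, against 52.2% and 59.9% elsewhere. These loci are not independent of each other, and the difference was not tested.

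Members occupied shorter regions than other loci at low and middle levels, but not at the highest. The median region of the 271 members with a region of their own was 2032 bases, against 3610 for other loci of that kind above 7 RPKM in both first libraries. Regions under 1000 bases made up 17.7% of the former and 6.17% of the latter. By class of first level, members were set against all loci above 7 RPKM in both first libraries, which include the members themselves. Their median lengths were 2748 and 4420 bases under 50 RPKM, 2561 and 3190 between 50 and 500, and 1966 and 1812 at 500 or above. Shared regions were kept in these medians, and the small gap at the highest level was not tested. RPKM divides by length, so region length is not wholly separate from the levels, and a region in the tables can span more than the transcript. The tables give no exon, intron or UTR for any member.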

How the data were processed

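The deposited data are 2 tables, each comparing 2 libraries over the same 32625 loci, with values the authors deposited as RPKM, a unit stated in the tables' names only. CASAVA and TopHat2 are named without a version, per the submitters' processing notes. The sources used here give neither the tool that made the values, nor its genome build, nor how the tables were scaled to each other. Locus names begin with CM3.5. The q-value is the authors' own, deposited for second over first library per the file headers. Value columns were tied to a cultivar by the table's letter and to no treatment.

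Loci were joined by their locus number. The value l used a pseudocount of 1, and understates the change of low genes. No further minimum was applied. Coordinates count from 1. Read depth is unknown, so no interval is given. Nearness means a gap of at most 20000 bases. The members and all lists were chosen with earlier results of these data known. Among members whose exact region no other locus has, genes were named by fixed criteria: the highest first levels, the lowest mean l, the largest differences between tables, those nearest the limit, the longest runs of neighbours and q-values under 0.05 in both tables; MELO3C005004 and MELO3C008486, which share a region, and the members of further pairs were chosen after their values were seen. All listed alternatives were run. Python 3.11.15 was used with pandas 2.3.3, numpy 2.4.6, matplotlib 3.10.9 and scipy 1.17.1. The selection was tested on simulated data.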

Additional observations from a re-analysis of the deposited data

How the results depend on the processing

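Over 7 results and 79 alternative values, 49 stayed within the limits set (counts within 1.5 times, shares and medians within a 95% binomial interval over loci, which are not independent) and 30 moved. A change of sign was not possible, since counts and shares have no sign and the limit on l keeps its medians below 0. The set held 832 loci at l of at most -2, 116 at -4 and 167 with a pseudocount of 5; with centring, scaling to the 75th percentile, 0 values or contigs admitted, a first value of at least 20, status OK, unshared regions or a pseudocount of 0.1 it held 268 to 463. The 75th percentile scaling shifted the second library by a log2 factor of 0.07 in B and 0.39 in Y. The share lower in Y was 56.0% at l of at most -4, 61.0% with centring and 61.8% with scaling, each with the set chosen again. Members near another made up 23.1% at -2, 5.17% at -4, 16.2% and 7.19% at pseudocounts of 0.1 and 5, and 2.88% and 18.2% at 5000 and 50000 bases; more members leave less room between them. Of the B list, 72.5% was also in Y at -4, 65.7% with 0 values admitted and 84.8% with first values of at least 20. The causes were not tested where the construction does not give them. Medians of l lay between -4.81 and -2.89 in B and between -5.11 and -3.49 in Y, a range that largely follows the limit chosen. Depth is unknown, so how far few reads widen these ratios was not assessed. No paired analysis was possible because no result comes from a test; l is itself the difference of the libraries within each table.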

Other observations

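Of the 81 loci that met the limit on l but held a 0, 36 were listed at 0 in both second libraries, 39 in that of B alone and 6 in that of Y alone. The most abundant of the loci at 0 in both that share no region were picked after their values were seen. MELO3C011538 (scaffold00015, 952576 to 952770) had 746 RPKM in the first library of B and 211 in that of Y. MELO3C018837 (scaffold00034, 3227938 to 3228153) had 102 and 475, MELO3C011297 (scaffold00014, 4554471 to 4554662) 217 and 175, and MELO3C021147 (scaffold00047, 95530 to 96171) 50.3 and 226. All 4 had regions of under 1000 bases, and in the authors' deposited tables their q-values lay between 0.720 and 0.919. No ratio is given against a value of 0.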
